A study of Arabidopsis thaliana with 69 samples.

Results

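Glutathione transferase genes were followed through the induction of VND7, a transcription factor that directs plant cells to become xylem vessels, in Arabidopsis thaliana. The members were all probe sets assigned to a single gene whose symbol contains GST followed by F, U, L, T or Z and a number. This rule found 14 of the 22746 non-control probe sets of the ATH1 array, of which 13513 are assigned to a single gene. There were 11 members of the tau class (GSTU15, GSTU16, GSTU18, GSTU20, GSTU21, GSTU22, GSTU23, GSTU25, GSTU26, GSTU27 and GSTU28), 2 of the phi class (GSTF4 and ATGSTF13) and 1 of the lambda class (GSTL3). The theta and zeta classes had 0 members. The reference gene table lists 49 genes with such a symbol or synonym, and those without a named probe set were not analysed here.

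Glutathione transferases join the tripeptide glutathione to electrophilic compounds, or bind and carry such compounds, and the conjugates are moved into the vacuole. The tau and phi classes are the large plant classes, known for herbicide detoxification and for induction by xenobiotics, oxylipins and oxidative stress, and single members take part in anthocyanin transport and glucosinolate synthesis. Lambda enzymes carry a catalytic cysteine in place of the usual serine and act as thiol transferases.

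The cultures were Col-0 plants grown in liquid medium in the dark for 6 days, and the labels give hypocotyl as the tissue. The VND7 line, of the T3 generation, expressed VND7-VP16-GR from the 35S promoter, which is active in most tissues. VP16 is an activation domain, and GR, from the glucocorticoid receptor, lets the fusion protein enter the nucleus once dexamethasone (DEX) binds it. The VND7 cultures received 10 µM DEX, or DMSO in place of DEX, and were harvested after 1, 3, 6, 9, 12, 24, 30 and 48 h, with a DMSO group at 0 h as well. The empty vector (EV) line carried VP16-GR without VND7 and was harvested with DEX or DMSO at 9, 12 and 24 h. Each of the 23 groups had 3 arrays, labelled as biological replicates, which gave 24 VND7 DEX, 27 VND7 DMSO, 9 EV DEX and 9 EV DMSO arrays. Values are log2 signals normalized with GCRMA. The lowest value was 2.14, and a value within 0.3 of it is called the floor here.

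Each array of the VND7 line was first set against the others over all probe sets. The profiles of 10 arrays sat with the other treatment label. Among those labelled DMSO they were replicate 3 at 0 h, replicate 2 at 1 h, replicate 2 at 6 h and replicate 1 at 24 h. Among those labelled DEX they were replicates 2 and 3 at 1 h, replicate 2 at 24 h and the 3 arrays at 48 h. DMSO replicate 3 at 0 h correlated more with its own label (mean r of 0.951 against 0.931). It was counted because its 3 nearest arrays were all labelled DEX. Those include DEX replicate 2 at 24 h and at 1 h, which are themselves among the 10. The mean signal of the 4 measured xylem genes lay between 7.66 and 12.57 in the other 18 DEX arrays, between 4.09 and 4.63 in the other 23 DMSO arrays of the VND7 line, and between 4.08 and 4.28 in the EV line. It was 9.66, 9.39 and 9.69 in the DMSO arrays at 1 h, 6 h and 24 h, 6.39 in the DMSO array at 0 h, 5.93 and 4.23 in the DEX arrays at 1 h, 5.85 in the DEX array at 24 h, and 4.52 to 4.70 at 48 h. All arrays were kept under their labels in the main comparisons, and member results that rest on these 10 arrays are also given without them. The 10 were picked by likeness to the other treatment, so calls and adjusted p-values without them are descriptive and are no test. The groups at 3, 9, 12 and 30 h hold none of the 10, so leaving them out keeps the size of a change there and alters only its error and adjusted p. Without them 48 h keeps no DEX array and 1 h keeps 1. The spread for that 1 array comes from other groups, so for single members only sizes of change are given. Counts of calls at 1 h without the 10 arrays are no result. Arrays were set against treatment labels only, not against times. DEX 3 h replicate 2 was nearest to DEX 12 h replicates 1 and 3, with xylem means of 7.68, 7.9 and 7.66. DEX 12 h replicate 2 was nearest to DEX 3 h replicate 1 and DEX 9 h replicate 1, with means of 12.42, 12.35 and 12.45. Whether these arrays carry each other's time was not tested, and their labels were kept.

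Changes were called with limma at a Benjamini-Hochberg adjusted p below 0.05 over all probe sets and a size of at least 1 on the log2 scale. GSTU15 and ATGSTF13 were at the floor in all 69 arrays. GSTU16, GSTU21 and GSTU23 were at the floor in 56, 60 and 63 arrays, and the other 9 members had measurable signal throughout, apart from GSTU20 in 2 arrays. In the VND7 line 8 of the 14 members were called at 1 or more times, and 6 were called at none. In the EV line 0 members were called at any time.

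At 3 h, 3 members rose and 2 fell on DEX, where 27.8% of all probe sets were called (10.4% up and 17.4% down). At 6 h, 0 members rose and 2 fell (22.5% of all probe sets, 9.85% up and 12.7% down). At 9 h, 3 rose and 2 fell (29.5%, 11.8% up and 17.7% down), and at 12 h, 2 rose and 2 fell (22.2%, 8.94% up and 13.2% down). At 30 h, 5 rose and 2 fell (28.0%, 12.7% up and 15.2% down). At 1, 24 and 48 h 0 members were called in limma, where 0.0132%, 4.35% and 0.00440% of all probe sets were, and 1, 4 and 0 members had an unadjusted p under 0.05. Between 2 and 7 of the 14 members were thus called where the array as a whole gave 22.2% to 29.5%, and the median change of the members lay between -0.09 and 0.08 at those times, against 0 for all probe sets. Members mostly or always at the floor count in that median. Groups of 3 DEX and 3 DMSO arrays did not overlap for 40.5% of all probe sets at 3 h, 33.8% at 6 h, 50.7% at 9 h, 41.4% at 12 h and 48.7% at 30 h. Without the 10 arrays 5 members rose and 2 fell at 1 h (30.6% of all probe sets called, 13.9% up and 16.6% down), 2 rose and 2 fell at 6 h (30.7%, 12.3% up and 18.4% down), and 5 rose and 2 fell at 24 h (30.4%, 13.3% up and 17.1% down). The count at 1 h rests on 1 DEX array, whose spread comes from other groups, and is no result. The counts at the other times were as with all arrays, with 30.6% of all probe sets called at 3 h (11.5% up and 19.1% down), 31.9% at 9 h (13.0% up and 18.9% down), 26.2% at 12 h (10.3% up and 15.9% down) and 29.6% at 30 h (13.7% up and 15.9% down).

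Calls in the tau class went both ways. Among its 11 members, GSTU18, GSTU22, GSTU25, GSTU26 and GSTU28 were called higher with DEX at 1 or more times, and GSTU20 and GSTU27 were called lower. In the phi class GSTF4 was called lower at 30 h and ATGSTF13 stayed at the floor, so that a comparison of the classes rests on 1 phi gene. The median tau change was 0.79 at 30 h and between -0.17 and 0.19 at 3, 6, 9 and 12 h. At each of these times the middle member was a gene mostly at the floor and not called. It was GSTU21 at 3 and 30 h, GSTU23 at 6 and 12 h and GSTU16 at 9 h. These medians therefore do not show a shift of the class. Centring each array on its median raised the median change of all probe sets to 0.58 at 3 h, 0.43 at 6 h, 0.55 at 9 h, 0.49 at 12 h, 0.22 at 24 h and 0.43 at 30 h. With that scaling the share of rises among all calls became 66.0% at 3 h, 67.6% at 6 h, 63.5% at 9 h, 67.5% at 12 h, 80.4% at 24 h and 64.2% at 30 h, against 37.5%, 43.7%, 40.0%, 40.4%, 66.4% and 45.6% in the values as deposited.

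**Figure D1:**
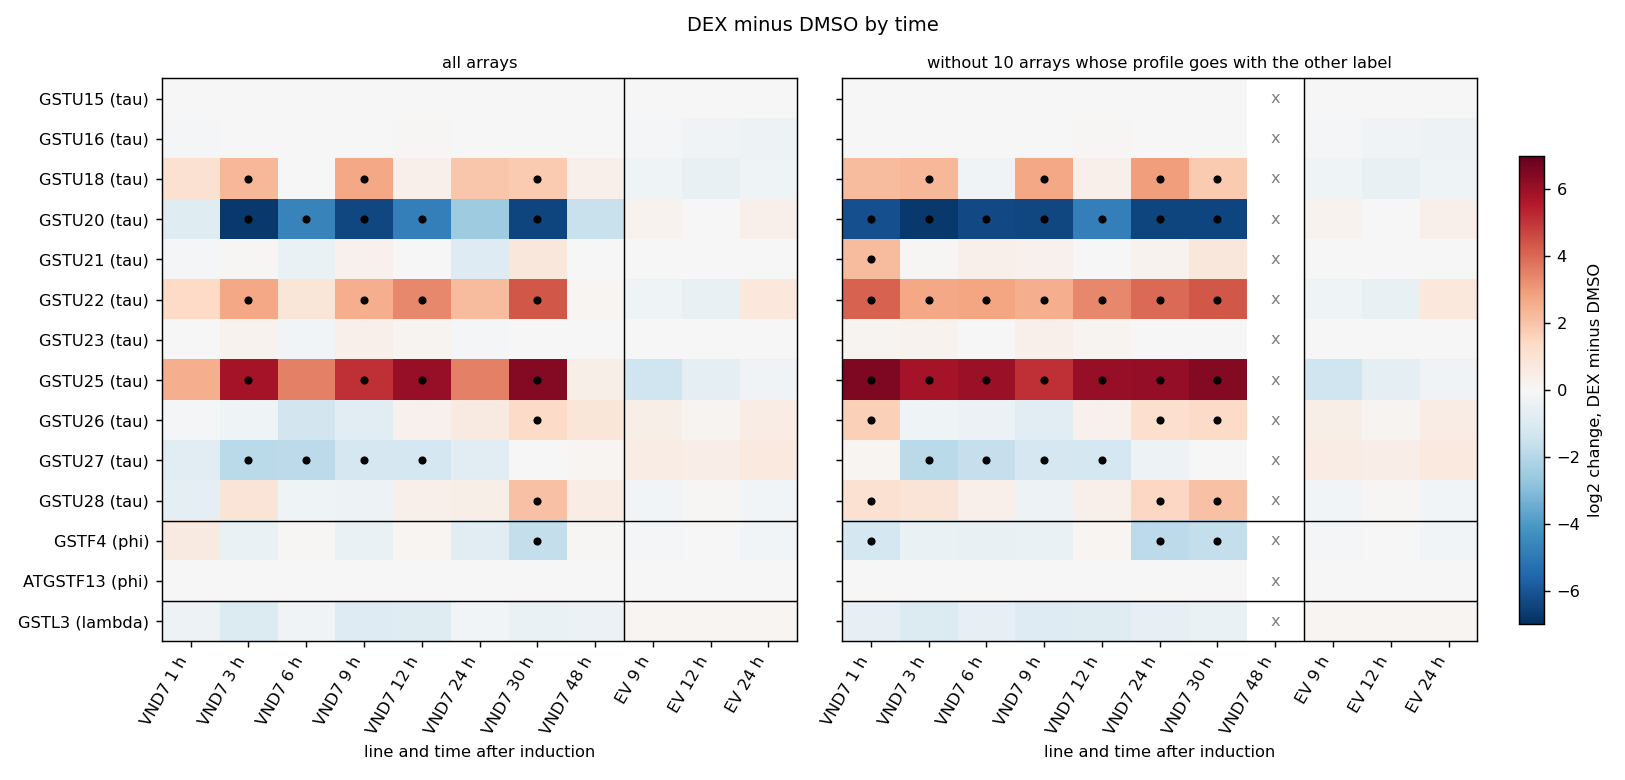
Change of each member (DEX minus DMSO, log2, colour) by line and time, with all arrays on the left and without the 10 arrays that sat with the other label on the right; dots mark calls and x marks a change that could not be computed. GSTU20 is blue and GSTU22 and GSTU25 are red at 3 to 30 h in the VND7 line, and the EV line holds 0 calls. Any dots at 1 h on the right rest on 1 DEX array and are no result.

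GSTU20 had the largest fall among the members in the average over 3 to 30 h. This tau enzyme is also known as a partner of the jasmonate-conjugating enzyme FIN219 in light signalling and has been linked to aliphatic glucosinolate synthesis. Its log2 signal was 2.14, 4.82 and 3.07 in the DEX arrays at 3 h, against 11.10, 8.05 and 11.21 in the DMSO arrays. At 6 h it was 3.32, 2.60 and 3.32 with DEX, against 8.56, 4.59 and 10.19 with DMSO, where the lowest DMSO value belongs to the array that sat with the other label. All DEX arrays lay below all DMSO arrays at both times. At 9 h the DEX arrays had 2.73, 2.14 and 2.49, against 9.14, 9.37 and 7.98 in the DMSO arrays. At 12 h they had 5.51, 2.96 and 5.75, against 10.57, 9.13 and 8.81. At 30 h they had 2.49, 2.49 and 3.15, against 8.12, 10.08 and 9.26. The groups did not overlap at any of these 3 times, and the DEX arrays were near the floor at 9 and 30 h.

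The fitted GSTU20 change was -6.78 ± 1.39 at 3 h (SE, adjusted p = 1.1e-04), -4.70 at 6 h (0.00652), -6.38 at 9 h (2.0e-04), -4.76 at 12 h (0.00611) and -6.45 at 30 h (4.7e-04), n = 3 arrays in each group. Averaged over 3 to 30 h, GSTU20 had 3.49 ± 1.62 with DEX and 8.75 ± 2.07 with DMSO (SD, n = 18 each), a change of -5.26 ± 0.57 (SE, adjusted p = 2.8e-11). That average counts among 3 rises and 2 falls of the members, where 25.5% of all probe sets were called (9.83% up and 15.7% down). These arrays measure bulk RNA, in which fewer cells of a type and less RNA per cell cannot be told apart. At 1 h the DEX arrays had 3.32, 8.22 and 8.13, against 10.09, 3.26 and 8.87 with DMSO. At 24 h they had 2.49, 8.37 and 2.96, against 3.01, 9.98 and 8.34. The groups overlapped at both times, and the overlapping values came from the arrays that sat with the other label. Without those arrays GSTU20 was lower with DEX at all 7 times left, with changes from -6.78 to -4.76. The 1 h change rests on 1 DEX array, and the average over 3 to 30 h was -6.18 ± 0.31. At 48 h, where all DEX profiles sat with DMSO, GSTU20 had 8.29, 9.26 and 7.97 with DEX and 9.25, 11.64 and 9.26 with DMSO, a change of -1.54 ± 1.39 that was not called (adjusted p = 1). The call at 6 h was lost when DMSO replicate 3 was left out (-3.49, adjusted p = 0.081) and when the fit held the compared groups alone (adjusted p = 0.131), and the call at 12 h when DEX replicate 2 was left out (-3.87, adjusted p = 0.0555).

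**Figure D2:**
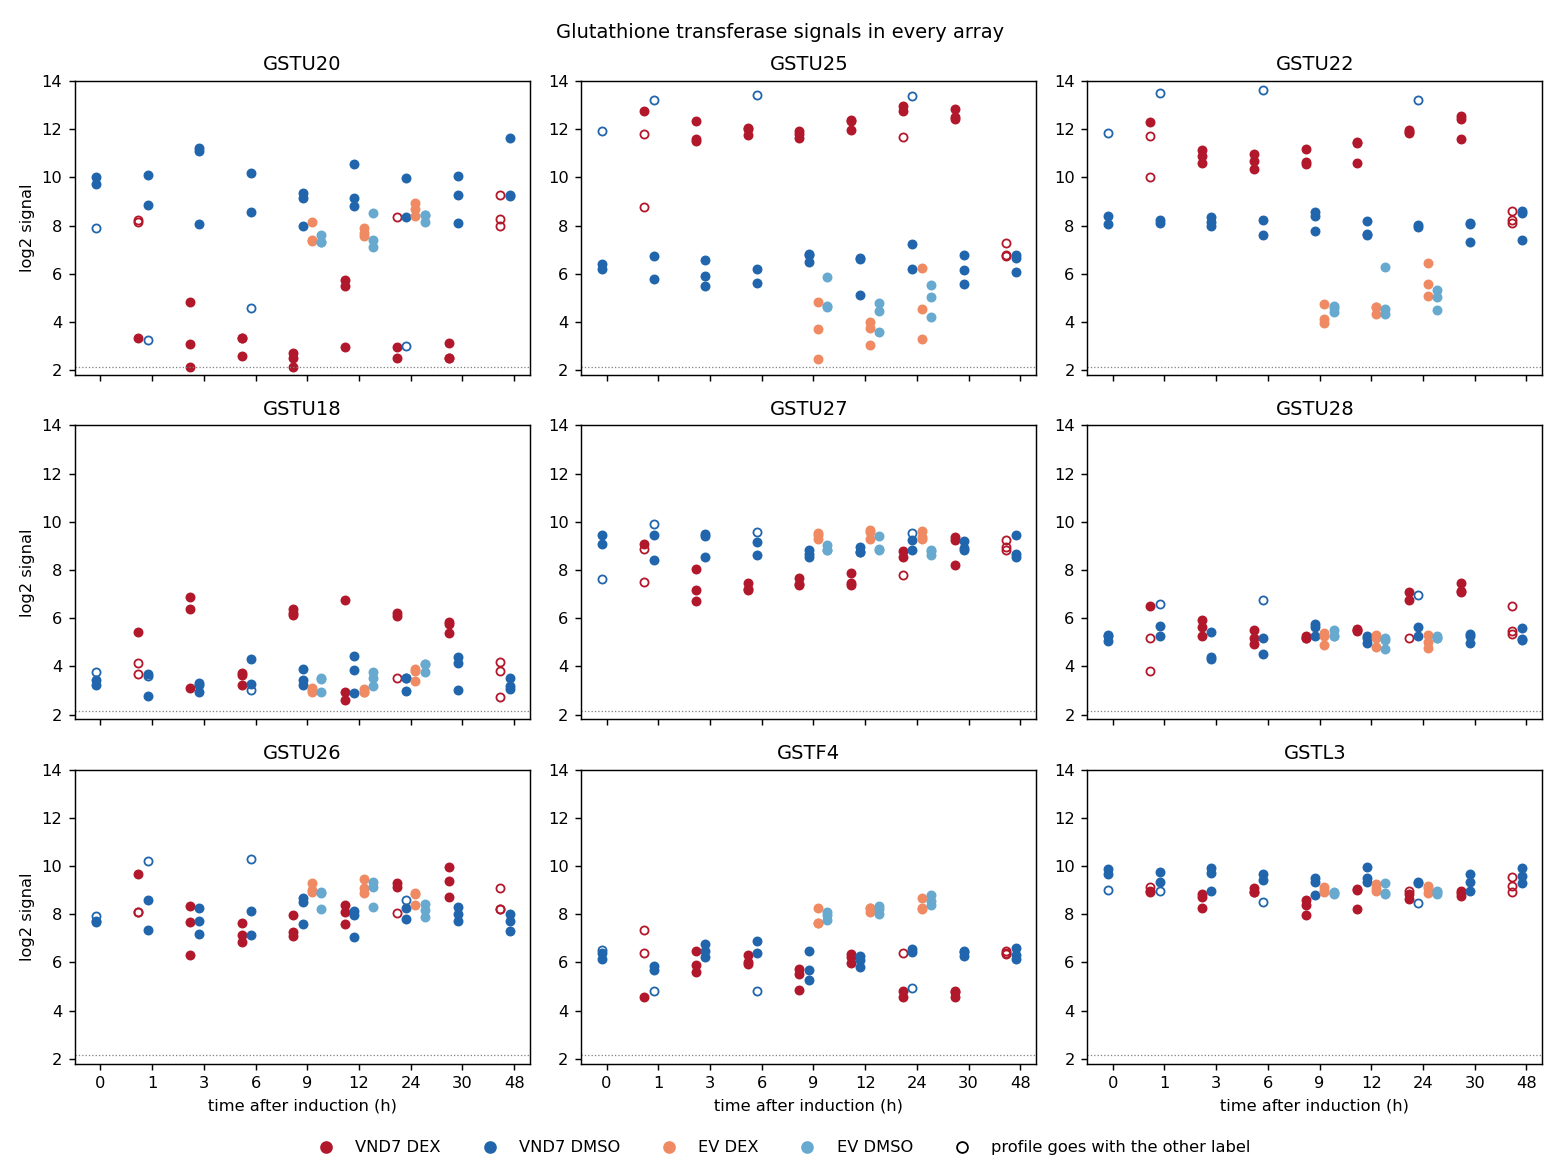
Log2 signal of 9 members in every array against time after induction (h), with VND7 DEX, VND7 DMSO, EV DEX and EV DMSO side by side at each time; open circles are arrays that sat with the other label and the dotted line is the floor (2.14). Filled DEX points of GSTU20 reach at most 5.75, and those of GSTU25 start at 11.50.

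GSTU25 had the largest rise in the same average. It encodes a tau enzyme known to be induced by xenobiotics and to conjugate the explosive trinitrotoluene. Its log2 signal was 11.59, 12.34 and 11.50 with DEX at 3 h, against 5.89, 6.57 and 5.50 with DMSO. At 9 h it was 11.92, 11.65 and 11.82, against 6.48, 6.84 and 6.78 with DMSO. These groups were far apart and narrow, with SDs of 0.14 to 0.54. At 12 h the DEX arrays had 12.36, 11.96 and 12.37, against 5.11, 6.66 and 6.62 in the DMSO arrays. At 30 h they had 12.52, 12.83 and 12.44, against 6.78, 5.57 and 6.14. No DEX array overlapped a DMSO array at these times.

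The GSTU25 changes were 5.82 ± 1.44 at 3 h (SE, adjusted p = 9.6e-04), 5.10 at 9 h (0.00321), 6.10 at 12 h (7.8e-04) and 6.43 at 30 h (6.1e-04), n = 3 arrays in each group. Averaged over 3 to 30 h the change was 5.08 ± 0.59 (adjusted p = 1.7e-10), and 5.94 ± 0.23 without the 10 arrays. At 6 h GSTU25 had 12.03, 12.05 and 11.78 with DEX, against 6.20, 13.42 and 5.61 with DMSO, and the change of 3.54 was not called (adjusted p = 0.05). At 24 h it had 12.97, 11.68 and 12.76 with DEX, against 13.39, 6.22 and 7.25 with DMSO, and the change of 3.51 was not called either (adjusted p = 0.121). In both cases 1 DMSO array exceeded every DEX array. Without that array and the others that sat with the other label the changes were 6.05 at 6 h and 6.13 at 24 h, and both were called (adjusted p = 2.6e-11 and 3.1e-10). Leaving out arrays for likeness to the other treatment favours such a separation, so these 2 calls are no test of it. At 1 h the DEX arrays had 12.77, 11.79 and 8.76, against 5.79, 13.21 and 6.74 in the DMSO arrays, with a change of 2.53 (adjusted p = 0.751). The single DEX array left at 1 h, whose nearest profile was DEX 30 h replicate 2, stood 6.51 above the DMSO arrays left.

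GSTU22, another xenobiotic-inducible tau gene, also rose. With DEX at 12 h it had 11.44, 10.59 and 11.45, against 7.60, 8.18 and 7.64 with DMSO, a change of 3.35 ± 1.06 (SE, adjusted p = 0.0108). At 30 h it had 11.59, 12.44 and 12.55 with DEX, against 8.09, 8.08 and 7.31 with DMSO, a change of 4.37 (adjusted p = 0.0012). The groups were separate at both times. At 3 h the values were 10.61, 11.12 and 10.87 with DEX and 8.36, 8.16 and 7.98 with DMSO, and at 9 h they were 11.20, 10.56 and 10.64 with DEX and 7.76, 8.42 and 8.58 with DMSO. These groups did not overlap either, and the changes of 2.70 and 2.55 were called (adjusted p = 0.0348 and 0.0461). Leaving out any 1 of the 6 arrays ended the call at 3 h (adjusted p from 0.0589 to 0.0841) and at 9 h (0.0659 to 0.128). At 6 h the DEX arrays had 10.99, 10.70 and 10.34, against 7.63, 13.64 and 8.22 with DMSO. At 24 h they had 11.88, 11.85 and 11.98, against 13.20, 8.01 and 7.93. The changes of 0.84 and 2.19 were not called, and 1 DMSO array was above all DEX arrays each time. Over 3 to 30 h GSTU22 had 11.27 ± 0.67 with DEX and 8.60 ± 1.78 with DMSO (SD, n = 18 each), a change of 2.67 ± 0.43 (SE, adjusted p = 4.9e-07). Without the 10 arrays GSTU22 was higher with DEX at all 7 times left, with changes from 2.55 to 4.37. The 1 h change rests on 1 DEX array, and the average over 3 to 30 h was 3.28 ± 0.16.

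The DMSO arrays at 1, 6 and 24 h that sat with DEX had more GSTU22 and GSTU25 signal than any DEX array. GSTU22 was 13.51, 13.64 and 13.20 in them, against a highest DEX value of 12.55. GSTU25 was 13.21, 13.42 and 13.39 in the same arrays, against a highest DEX value of 12.97. GSTU20 was low in them, at 3.26, 4.59 and 3.01. DMSO replicate 3 at 0 h and DEX replicate 2 at 1 h and at 24 h were each nearest to another of these arrays. Their xylem means of 6.39, 5.93 and 5.85 lay between those of the DEX and DMSO arrays that kept with their label. They had both genes at once, with GSTU20 at 7.90, 8.22 and 8.37 and GSTU25 at 11.92, 11.79 and 11.68. In the arrays that kept with their label GSTU20 ranged from 2.14 to 5.75 with DEX and from 7.98 to 11.64 with DMSO. GSTU25 ranged from 11.50 to 12.97 with DEX and from 5.11 to 7.25 with DMSO. Neither gene overlapped, but arrays resembling the other treatment had been set aside, so this is no test of separation. The share of all probe sets without overlap in these arrays was not counted.

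**Figure D3:**
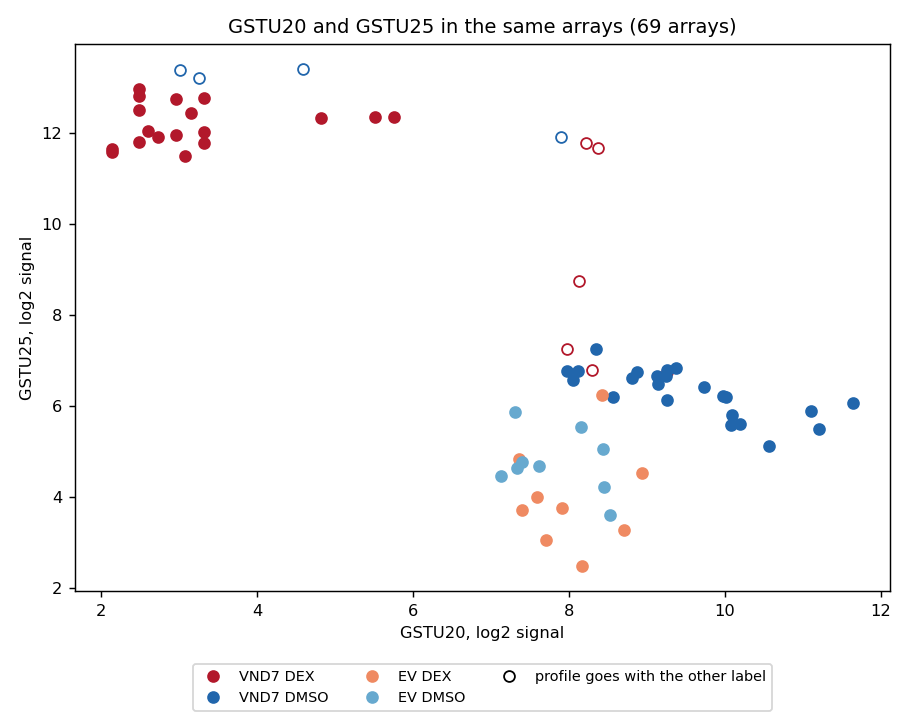
Log2 signal of GSTU25 (vertical axis) against GSTU20 (horizontal axis) in each of the 69 arrays, coloured by line and treatment, with open circles for arrays that sat with the other label. VND7 DEX arrays that kept with their label lie at the upper left, VND7 DMSO arrays at the lower right, and EV arrays at the lower right with less GSTU25; the open circles at GSTU20 of 7.90 to 8.37 and GSTU25 of 11.68 to 11.92 lie outside these clusters.

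GSTU18 was called higher with DEX at some labelled times and not at others. With DEX it had 6.89, 3.11 and 6.37 at 3 h, against 2.92, 3.21 and 3.32 with DMSO. At 9 h it had 6.37, 6.13 and 6.22 with DEX, against 3.91, 3.24 and 3.44 with DMSO. At 30 h it had 5.82, 5.40 and 5.74 with DEX, against 4.38, 3.00 and 4.13 with DMSO. The groups were separate at 9 and 30 h, while at 3 h DEX replicate 2 lay within the DMSO range. The changes were 2.31 ± 0.67 at 3 h (SE, adjusted p = 0.00466), 2.71 at 9 h (8.9e-04) and 1.82 at 30 h (0.0277). The 3 h call was lost without DEX replicate 1 (1.59, adjusted p = 0.0814) and when the fit held the compared groups alone (adjusted p = 0.213), and the 30 h call without DMSO replicate 2, DEX replicate 1 or DEX replicate 3 (adjusted p from 0.0644 to 0.154). At 6 h GSTU18 had 3.24, 3.72 and 3.63 with DEX and 4.31, 3.03 and 3.25 with DMSO, and at 12 h 2.60, 6.74 and 2.93 with DEX and 2.88, 3.85 and 4.42 with DMSO. Neither time was called, and in both the groups overlapped. DEX replicate 2 of 3 h was nearest in profile to arrays of 12 h, and DEX replicate 2 of 12 h to an array of 3 h. The course of GSTU18 between 3 h and 12 h is therefore uncertain. At 24 h GSTU18 had 6.10, 3.52 and 6.20 with DEX, against 3.52, 2.96 and 3.52 with DMSO, and the change of 1.94 was not called (adjusted p = 0.0624). It was called on median centring (2.16, adjusted p = 0.0478) and without the 10 arrays, which include DEX replicate 2 (2.91, adjusted p = 0.00239). The latter call is no test, as arrays were left out for likeness to the other treatment. Averaged over 3 to 30 h, GSTU18 had 5.04 ± 1.53 with DEX and 3.52 ± 0.53 with DMSO (SD, n = 18 each), a called change of 1.52 ± 0.27 (adjusted p = 3.9e-06), and of 1.64 ± 0.28 without the 10 arrays.

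The 18 DEX arrays that kept with their label were split at the widest gap in their own GSTU18 values. This gave 6 with GSTU18 of at most 3.72 and 12 with at least 5.40. The 6 low arrays were all 3 of 6 h, replicates 1 and 3 of 12 h and replicate 2 of 3 h. GSTU25 was between 11.78 and 12.37 in those 6 arrays. It was between 11.50 and 12.97 in all 18, so it was high on either side of any such split. The mean of the 4 xylem genes was 7.66, 7.68 and 7.9 in the low arrays of 3 and 12 h. It was 11.08, 11.17 and 11.6 in those of 6 h, within the range of 10.91 to 12.57 in the 12. Its part in the GSTU18 values was not tested.

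GSTU27 fell at 3 to 12 h and was not called at 30 h. With DEX it had 8.02, 7.15 and 6.72 at 3 h, against 9.42, 8.53 and 9.51 with DMSO. At 9 h it had 7.39, 7.65 and 7.40 with DEX, against 8.81, 8.66 and 8.54 with DMSO. At 30 h it had 8.22, 9.37 and 9.24 with DEX, against 8.83, 9.19 and 8.90 with DMSO. The groups were apart at 3 and 9 h and overlapped at 30 h. The changes were -1.86 ± 0.37 at 3 h (SE, adjusted p = 6.3e-05), -1.83 at 6 h (8.3e-05), -1.19 at 9 h (0.0067), -1.24 at 12 h (0.00684) and -0.03 at 30 h (1). The 30 h effect minus the 3 h effect was 1.83 ± 0.52 for GSTU27 (adjusted p = 0.0242), the 1 member called in that comparison, where 4.26% of all probe sets were (2.65% up and 1.62% down). The call was lost in 7 of the 12 fits that left out 1 array (adjusted p up to 0.0876), on median centring (1.68, adjusted p = 0.0715) and with the compared groups alone (adjusted p = 0.113). Without the 10 arrays, none of which is at 3 or 30 h, 5 members were called, namely GSTU22 (1.67), GSTU26 (1.63), GSTU27 (1.83) and GSTU28 (1.14) upward and GSTF4 (-1.18) downward, where 14.3% of all probe sets were called (9.21% up and 5.07% down). Median centring ended the GSTU27 calls at 9 h (-0.64) and 12 h (-0.75) and reduced its average over 3 to 30 h to -0.71, below the smallest size called, against -1.16 ± 0.15 (adjusted p = 3.0e-09) as deposited. Without the 10 arrays GSTU27 was called at the same 4 times (-1.59 at 6 h) and averaged -1.05 ± 0.12.

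With all arrays and the values as deposited, 3 members were called at 30 h alone. GSTU28 had 7.10, 7.14 and 7.46 with DEX at 30 h, against 5.28, 4.97 and 5.36 with DMSO, a change of 2.03 ± 0.45 (SE, adjusted p = 5.5e-04). GSTU26, a tau gene known to respond to herbicide treatment, had 9.95, 8.73 and 9.38 with DEX at 30 h, against 8.31, 7.71 and 8.03 with DMSO, a change of 1.34 ± 0.54 (adjusted p = 0.0432). The phi gene GSTF4 had 4.76, 4.55 and 4.81 with DEX, against 6.26, 6.46 and 6.43 with DMSO, a change of -1.68 ± 0.44 (adjusted p = 0.00237). The groups of all 3 genes were separate at 30 h, and the GSTU26 call was lost in 5 of the 6 fits that left out 1 array (adjusted p from 0.0511 to 0.189). At 3, 6, 9 and 12 h GSTU28 changed by -0.33 to 0.89, GSTU26 by -1.30 to 0.31 and GSTF4 by -0.49 to 0.11, and none of these was called. On median centring GSTU28 was also called at 3 h (1.47, adjusted p = 0.0108, against 0.89 as deposited), which made 6 members called at that time.

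At 24 h the 2 DEX arrays that kept with their label differed from the DMSO arrays left in the same direction as at 30 h for these genes. GSTU28 had 6.74 and 7.08 in them, against 5.28 and 5.62 in the DMSO arrays left, a change of 1.46 (adjusted p = 2.2e-05). GSTF4 had 4.81 and 4.55, against 6.57 and 6.44, a change of -1.83 (adjusted p = 1.1e-06). GSTU26 had 9.31 and 9.12, against 7.81 and 8.26, a change of 1.18 (adjusted p = 0.0485). The arrays left were kept because their profiles went with their treatment label, so these adjusted p-values are no test of a DEX effect at 24 h. With all 24 h arrays the 3 changes were 0.39, -0.73 and 0.62, and none was called. DEX 1 h replicate 1, whose nearest profile was DEX 30 h replicate 2, had GSTU28 at 6.52, GSTF4 at 4.55 and GSTU26 at 9.66. The changes from this single array at 1 h were 1.07, -1.23 and 1.69. The 3 DMSO arrays at 1, 6 and 24 h that sat with DEX had GSTU28 at 6.57, 6.75 and 6.94, above all 23 DMSO arrays that kept with their label, which ended at 5.75, and GSTF4 at 4.81, 4.81 and 4.93, below their lowest value of 5.27. The root hair genes EXPA7 and EXPA18 also rose at 30 h, by 1.53 and 2.05, with a mean of both of 5.38 to 6.01 with DEX and 3.46 to 4.12 with DMSO. Their part in the late changes was not tested.

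The other 6 members were not called at any time with all arrays. GSTL3, the lambda gene, had 8.26, 8.72 and 8.85 with DEX at 3 h, against 9.72, 8.98 and 9.94 with DMSO, and 7.97, 8.59 and 8.40 with DEX at 9 h, against 9.32, 9.52 and 8.79 with DMSO. The groups did not overlap, and the changes of -0.94 and -0.89 passed the adjusted p (0.00337 and 0.00481) but were smaller than the size called. On median centring they were -0.36 and -0.34 and did not pass (adjusted p = 0.15 and 0.168). GSTL3 changed by -0.84 at 12 h (adjusted p = 0.0103) and by -0.22, -0.21 and -0.46 at 6, 24 and 30 h, which did not pass. With the 10 arrays left out GSTL3 changed by -0.57 at 6 h and -0.58 at 24 h (adjusted p = 0.059 and 0.0784). GSTU21 left the floor in 9 arrays, all of the VND7 line. Its highest values were 5.34, 4.56 and 4.54 in the DMSO arrays at 24, 1 and 6 h that sat with the other label, then 4.36 in DEX 1 h replicate 1 and 3.80 in DEX 30 h replicate 2. GSTU21 was at the floor in all 18 EV arrays and was not called at any time with all arrays. Without the 10 arrays its change at 1 h was 2.22, which rests on 1 DEX array. GSTU23 reached at most 3.16 and was not called, and GSTU16 was above the floor only in 13 of the 18 EV arrays, at up to 3.23.

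GSTU20, GSTU21, GSTU22 and GSTU23 (AT1G78370, AT1G78360, AT1G78340 and AT1G78320) are neighbours on chromosome 1, with 0 other protein-coding genes between adjacent pairs. Within this run GSTU20 averaged -5.26 on DEX over 3 to 30 h and GSTU22 averaged 2.67, while GSTU21 and GSTU23 were mostly at the floor. GSTU25 and GSTU26 (AT1G17180 and AT1G17190) are also adjacent, and averaged 5.08 and -0.02. GSTU15 and GSTU16 (AT1G59670 and AT1G59700) lie 3 protein-coding genes apart, and both were at the floor in the VND7 line. GSTU18 (AT1G10360), GSTU28 (AT1G53680) and GSTF4 (AT1G02950) are elsewhere on chromosome 1, GSTU27 (AT3G43800) and ATGSTF13 (AT3G62760) on chromosome 3 and GSTL3 (AT5G02790) on chromosome 5. All 14 probe set identifiers have no suffix for shared probes, and whether probes also bind RNA of related family members was not tested.

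In the EV line DEX left the family without a called change. At 9, 12 and 24 h 0.0835%, 0.0879% and 0.123% of all probe sets were called, and 0, 1 and 1 members had an unadjusted p under 0.05 in limma. GSTU20 had 8.17, 7.40 and 7.36 with DEX at 9 h, against 7.33, 7.61 and 7.31 with DMSO. GSTU25 had 2.47, 3.72 and 4.84 with DEX, against 4.63, 4.67 and 5.86 with DMSO. Both pairs of groups overlapped, with changes of 0.22 ± 1.39 and -1.38 ± 1.44 (SE). These errors pool the spread of both lines, including the VND7 arrays that sat with the other label. Without those arrays the errors of the same EV changes were 0.72 and 0.52. The GSTU25 change then had an unadjusted p of 0.0121 in limma and was not called. Averaged over 9 to 24 h the EV change was 0.20 ± 0.80 for GSTU20, -0.02 ± 0.61 for GSTU22, -0.76 ± 0.83 for GSTU25 and -0.36 ± 0.39 for GSTU18. Without the VND7 arrays that sat with the other label these errors were 0.42, 0.21, 0.30 and 0.37, and none of these changes was called. GSTU27 was 9.45 ± 0.15 with DEX and 8.89 ± 0.22 with DMSO (SD, n = 9 each), an EV change of 0.56 ± 0.21 with an unadjusted p of 0.0108 that did not pass adjustment (0.804). GSTU16 was 2.31 to 2.89 with DEX and 2.32 to 3.23 with DMSO, an EV change of -0.26 near the floor that did not pass either (adjusted p = 0.0683). In that average 0 members were called by limma, 2 had an unadjusted p under 0.05, and 0.220% of all probe sets were called.

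The DEX effect of the VND7 line was then set directly against that of the EV line. At 9 h the effects differed for 5 members, 2 higher and 3 lower in the VND7 line, where 22.9% of all probe sets differed (9.84% higher and 13.1% lower). The differences were 6.47 ± 2.04 for GSTU25 (SE, adjusted p = 0.014), 3.00 for GSTU18 (0.0147), -6.60 for GSTU20 (0.00967), -1.73 for GSTU27 (0.0103) and -1.03 for GSTL3 (0.0323). That of GSTU22 was 2.82 ± 1.50 and did not pass (adjusted p = 0.161). Without the 10 arrays, none of which is at 9 h, the same GSTU22 difference was called (± 0.53, adjusted p = 2.9e-05), as 1 of 6 members, 3 higher and 3 lower, where 30.3% of all probe sets differed (12.3% higher and 18.0% lower). With the compared groups alone the count was also 6. GSTU27 and GSTL3 lost this call on median centring (-1.17, adjusted p = 0.0706, and -0.47, adjusted p = 0.194), and GSTL3 also in 7 of 12 fits without 1 array (adjusted p from 0.0504 to 0.102). Averaged over 9, 12 and 24 h, GSTU25 (5.67 ± 1.18), GSTU22 (2.71 ± 0.86) and GSTU18 (2.04 ± 0.55) had higher effects and GSTU20 (-4.75 ± 1.14) and GSTU27 (-1.65 ± 0.30) lower ones, with adjusted p of 1.4e-04, 0.0103, 0.00256, 7.7e-04 and 2.2e-05, where 22.0% of all probe sets were called (8.39% higher and 13.6% lower). Without the arrays that sat with the other label the GSTU25 and GSTU20 values were 6.54 ± 0.44 and -6.06 ± 0.61.

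**Figure D4:**
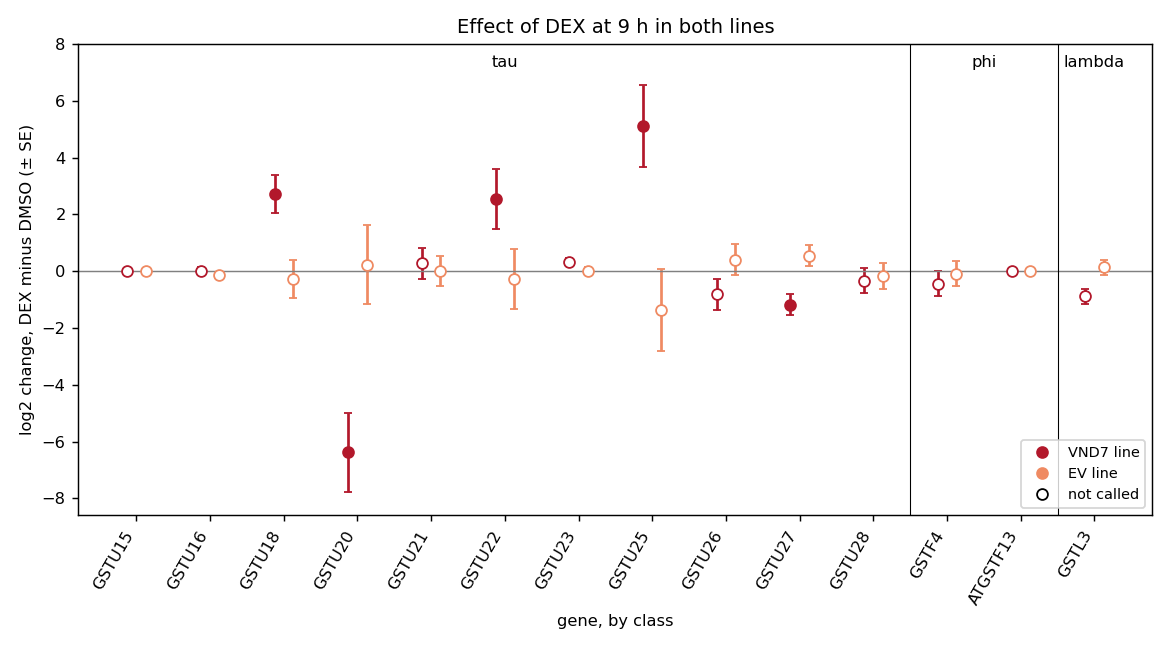
Change of each member on DEX at 9 h (DEX minus DMSO, log2, ± SE of the fit, 3 arrays per group) in the VND7 line and the EV line, with classes separated by vertical lines and open symbols for changes that were not called. In the VND7 line GSTU25, GSTU18 and GSTU22 lie above 0 and GSTU20 and GSTU27 below it with calls, and all EV points are open. The SE of the fit pools the spread of both lines, including VND7 arrays that sat with the other label.

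The lines also differed without DEX. Over the DMSO groups of 9, 12 and 24 h, 3 members were called, 2 higher and 1 lower in the VND7 line, where 3.99% of all probe sets were (1.96% higher and 2.03% lower). GSTU22 had 7.60 at the lowest, a median of 8.01 and 13.20 at the highest in the 9 VND7 DMSO arrays, against 4.35, 4.59 and 6.28 in the 9 EV DMSO arrays. GSTU25 had 5.11, 6.66 and 13.39 in VND7 DMSO arrays, against 3.59, 4.67 and 5.86 in EV DMSO arrays. GSTF4 had 4.93, 6.12 and 6.57, against 7.77, 8.21 and 8.79. The 2 lines were separate for GSTU22 and GSTF4 and overlapped for GSTU25. The share of all probe sets for which the lines are separate was not counted. The differences were 3.74 ± 0.61 for GSTU22 (SE, adjusted p = 9.3e-06), 2.51 ± 0.83 for GSTU25 (0.0323) and -2.29 ± 0.25 for GSTF4 (1.6e-09). The highest GSTU22 and GSTU25 values and the lowest GSTF4 value belong to DMSO 24 h replicate 1, which sat with the other label. Leaving out that array alone put GSTU25 at 1.77, which was not called (adjusted p = 0.136), and 7 other single arrays also ended its call (adjusted p from 0.054 to 0.0618). Without all arrays that sat with the other label the differences were 3.15 ± 0.22 for GSTU22, 1.77 ± 0.31 for GSTU25 and -2.11 ± 0.14 for GSTF4, and GSTU20 was also called (1.34 ± 0.43, adjusted p = 0.0188), where 4.68% of all probe sets were.

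GSTF4 was higher in every EV array, at 7.64 to 8.79, than in any array of the VND7 line, at 4.55 to 7.36. GSTU22 stood between 3.98 and 6.44 in the 18 EV arrays, below all 51 arrays of the VND7 line, which started at 7.31. How many of all probe sets separate the lines over these arrays was not counted either. The transgene and any other difference between the 2 lines cannot be told apart.

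**Figure D5:**
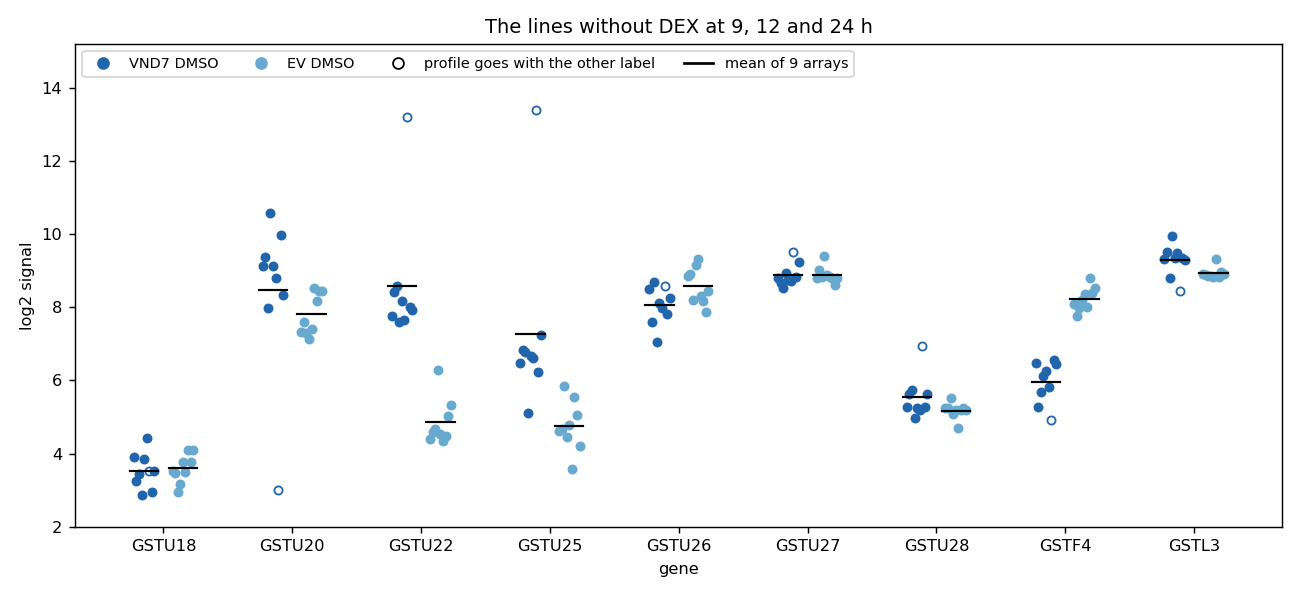
Log2 signal of 9 members in the DMSO arrays of 9, 12 and 24 h, with VND7 left of EV for each gene; bars are means of 9 arrays and the open circles are DMSO 24 h replicate 1, which sat with the other label. GSTU22 is higher and GSTF4 lower in the VND7 line with no overlap, and the share of all probe sets without overlap was not counted.

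Genes that work beside the transferases were taken from lists of pathway genes, of which few have a named probe set here. Over all probe sets 17.7% fell at 9 h and 15.2% at 30 h. Of 3 measured genes of 16 for glutathione synthesis, recycling and breakdown, the plastid glutathione reductase GR2 fell on DEX (-1.78 at 9 h and -1.59 at 30 h, adjusted p = 2.6e-05 and 3.8e-04), and GR1 and GGCT2;3 were not called. Of 2 measured genes of 13 for sulfate assimilation, the sulfite reductase SIR fell (-2.21 at 9 h and -1.07 at 30 h, adjusted p = 4.8e-09 and 0.00141), and APS3 was not called. The 1 measured gene of 13 for glutathione peroxidases and related enzymes, MGST, changed by -0.51 at 9 h and 0.74 at 30 h without a call. None of 5 vacuolar conjugate pumps was measured.

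Of 3 measured genes of 10 for flavonoid and anthocyanin synthesis, 3 fell at 30 h, with DFR at -4.82, UGT78D1 at -3.28 and UGT78D2 at -2.81 (adjusted p = 0.00413, 0.00223 and 0.0129), and 2 fell at 9 h, with DFR at -4.47 and UGT78D1 at -2.60. Without DEX, 2 of these 3 genes were higher in the VND7 line than in the EV line, DFR by 4.84 and UGT78D2 by 2.66 (adjusted p = 7.3e-06 and 2.3e-04). Over all probe sets 1.96% were called higher in that comparison. Its VND7 arrays include DMSO 24 h replicate 1, which sat with the other label. Of 3 measured genes of 21 for aliphatic glucosinolate synthesis, 0 were called at 9 h and 1 at 30 h, where UGT74C1 fell by 1.88 (adjusted p = 0.0372). In the average over 3 to 30 h, where 15.7% of all probe sets fell, all 3 fell. BCAT4 was at -2.31, UGT74C1 at -1.72 and UGT74B1 at -1.05. Among 3 measured genes of 15 for xenobiotic and oxylipin response, AER, an alkenal reductase, fell (-2.36 at 9 h and -2.01 at 30 h, adjusted p = 4.4e-08 and 4.7e-05). UGT73B4 changed by 0.56 and 1.94 without a call, and UGT73C1 stayed at the floor. In the EV average 0 genes of these 6 measured lists were called.

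Markers of cell types moved with the same contrast. All 4 measured xylem genes of 10 rose at 3, 9 and 30 h, where 10.4%, 11.8% and 12.7% of all probe sets did. At 6 h and 12 h 3 of them rose (9.85% and 8.94% of all probe sets). At 24 h 1 rose, where 4.35% of all probe sets were called either way, and at 1 and 48 h 0 rose. Both greening genes, LHCB4.1 and PORB, fell at 3, 9 and 30 h, where 17.4%, 17.7% and 15.2% of all probe sets did. They were not called at the other times. Their changes were -3.22 and -6.58 at 9 h. Their mean was 5.83 to 10.18 in the 18 DEX arrays that kept with their label, against 11.50 to 12.61 in such DMSO arrays. The phloem gene OPS, 1 of 2 listed, fell at 3 h and 6 h (-1.03 and -1.02, adjusted p = 0.0133 and 0.017) and was not called at 9 or 30 h. None of the measured phloem, root hair and greening genes was at the floor in every array of a group, and 1 of the 4 xylem genes was so in the DMSO arrays that kept with their label. Whether a shift in cell types has a part in the changes of the glutathione transferase genes was not tested.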

How the data were processed

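RNA of 69 cultures was hybridised to 1-colour ATH1 arrays. The authors' deposited values are log2 signals normalized with GCRMA (version not given), per the submitters' processing notes; they were used as deposited, without a second normalization. The 64 control probe sets were left out. Probe sets with several genes (503) or no name used here (8730) stayed in the fit and were not named. Locus names and neighbours came from the reference table (TAIR10.1).

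A group-means model over all 69 arrays was fitted with limma 3.58.1 (trended eBayes, R 4.3.3) for 17 comparisons, with adjustment over 22746 probe sets; adjusted p-values in the text come from it. The step was tested on simulated data. The number of arrays limits the precision. The floor limits how large a fall can be measured. An array of the VND7 line was said to sit with the other label when its mean correlation was higher with that label, or its 3 nearest arrays all carried it. Genes given in full were GSTU20, members called in the averages or between lines, and the highest member of each class; list genes were named when called at 9 or 30 h, and BCAT4, UGT74B1 and list genes without a call after their values were seen. Replicate numbers were not used as pairs: of 33 same-number pairs of DEX and DMSO arrays 8 deviated together (r over 0.1). Deviations were taken from means of 3 arrays, and groups at 1 h and 24 h hold arrays that sat with the other label. The check therefore cannot decide whether same-number cultures were paired. The members and lists were chosen with earlier results of these data known. Alternatives were median centring, the compared groups alone, a mean of at least 4, a replicate block, leaving out the 10 arrays, and leaving out each array.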

Additional observations from a re-analysis of the deposited data

Results flagged for a closer look

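The DEX effect differed between the VND7 line and the EV line at 9 h, by the test of the difference itself, for GSTU18 (3.00), GSTU20 (-6.60), GSTU25 (6.47), GSTU27 (-1.73) and GSTL3 (-1.03). Averaged over 9 to 24 h it differed for GSTU18 (2.04), GSTU20 (-4.75), GSTU22 (2.71), GSTU25 (5.67) and GSTU27 (-1.65). The effect in the VND7 line differed between 30 h and 3 h for GSTU27 (1.83). All values are VND7 effect minus EV effect, or 30 h effect minus 3 h effect, on the log2 scale.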

How the results depend on the processing

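Of 42 called changes of single members, 42 kept direction and call without the 10 arrays that sat with the other label. Those arrays were chosen by their likeness to the other treatment, so this is no test of stability. All 42 were also kept with a replicate block, which left the called counts at 5 at 3 h and 9 h, 2 at 6 h, 4 at 12 h and 7 at 30 h; the correlation of same-number arrays ran from -0.777 to 0.774. Median centring kept 36 and ended 6 (5 of GSTU27 and 1 of GSTL3), the compared groups alone kept 39, and the filter on a mean of at least 4 kept 36 and did not test GSTU18. Of the fits without 1 array, 579 results kept their call and 45 did not. No change reversed. Without the 10 arrays the members called were 4 at 6 h, 7 at 24 h and 5 for the 30 h minus 3 h effect, against 2, 0 and 1. With the compared groups alone they were 1 at 6 h and 0 for the 30 h minus 3 h effect, where fewer arrays enter the spread. With the filter they were 4 at 6 h. With median centring they were 1 at 24 h, 3 for the line difference in effect at 9 h (5 as deposited) and 0 for the 30 h minus 3 h effect; the cause was not tested. The share of rises among all calls was 67.2% with centring and 42.9% as deposited for the effect difference at 9 h, 65.5% and 38.2% for its average, 63.8% and 38.5% for the VND7 average, and 33.9% and 62.1% for the 30 h minus 3 h effect.

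With 1 array left out the called members were 3 to 6 at 3 h, 2 to 4 at 6 h, 4 to 5 at 9 h, 3 to 4 at 12 h, 0 to 4 at 24 h, 5 to 7 at 30 h, 4 to 5 and 5 to 5 for the effect difference at 9 h and its average, 2 to 3 between the lines without DEX, 0 to 1 for the 30 h minus 3 h effect, 5 to 5 for the VND7 average, and 0 to 0 at 1 h, at 48 h and in each EV comparison. DEX 3 h replicate 1 gave the 3, DMSO 6 h replicate 2 the 4 at 6 h, and DMSO 24 h replicate 1 and DEX 24 h replicate 2 gave 4 and 3 at 24 h. Signal at the floor limits 5 members, which were there in 56 to 69 of the 69 arrays.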
